A study of Mus musculus with 12 samples.

Results

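The genes described here encode the protein folding machinery of the endoplasmic reticulum and the sensors of its unfolded protein response. They were 32 genes out of 21899 in the authors' deposited table of read counts, taken as a list of symbols. The rule for the list used no values, but the list was chosen with earlier results of these data known. Shares of members called, set beside those of all genes below, are therefore not from a blind choice. The table held 31 of them under the listed symbol, and Ero1l was found through its Ensembl identifier under the symbol Ero1a. All 32 passed the filter on low counts, which left 11656 genes to test.

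RNA was sequenced from primary mouse bone marrow-derived macrophages, phagocytes grown from marrow, which the labels give as wild type (wt). The 4 groups of 3 libraries were control cells, cells with CS-PA/CNP, cells with PgLPS, and cells with PgLPS and CS-PA/CNP, called both agents below. The labels expand neither name and give no dose, time or order of addition. The series title places the work in the treatment of periodontitis and hypertension with a composite hydrogel. Count columns were assigned to groups by the letters in their names (C, M, L and LM), a reading the labels do not spell out. The library numbers below are those in the column names. The labels do not say whether the 3 libraries of a group were grown as separate cultures or taken from separate mice. The p-values therefore rest on a spread between libraries that may be technical.

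Proteins that enter the endoplasmic reticulum through the Sec61 channel fold there with the help of the Hsp70 chaperone BiP (Hspa5), the lectin chaperones calreticulin and calnexin, and disulphide isomerases. Chains that fail to fold are pulled back through the membrane and degraded. When unfolded chains build up, the sensors IRE1 (Ern1), PERK (Eif2ak3) and ATF6 are activated: IRE1 splices the messenger of the transcription factor XBP1, PERK slows translation, and ATF6 is cut to release a transcription factor. Spliced XBP1 and cut ATF6 raise the transcription of chaperone and degradation genes, many of them in this list. In macrophages, Toll-like receptor signals are known to engage IRE1 and XBP1. Read counts per gene measure messenger levels and do not measure splicing, phosphorylation or cleavage.

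A known binding element of this response is the endoplasmic reticulum stress element, which reads CCAAT, then 9 bases of any kind, then CCACG. It is printed here because 9 genes of the list carry it, 4 of them among the 9 lumenal chaperones, and the rule for the list did not use it. RefSeq promoter windows on GRCm38.p6, from 250 bases before to 50 after each gene start, were searched on both strands, and 26 of the 32 genes had a window. The element was found in 9 of the 26 (34.6%) and in 37 of 27025 genes with a window in the same table (0.137%). The element was originally defined from promoters of chaperone genes of this kind, so its presence in them is no result of these cells. Each line below runs 5′ to 3′ in the direction of its gene, with the match in capitals. A match on the other strand reads CGTGG, 9 bases, ATTGG, as in the second match of Hsp90b1 and in Creld2 and Calr. The last line shows the shorter related element of Herpud1, which reads ATTGG, 1 base, CCACG, and was present in 2 of the 26 members and 0.0444% of all genes.
Hspa5 (chr2:34772005-34772063, plus strand): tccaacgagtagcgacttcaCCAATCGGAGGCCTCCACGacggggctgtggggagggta
Hsp90b1 (chr10:86705618-86705676, minus strand): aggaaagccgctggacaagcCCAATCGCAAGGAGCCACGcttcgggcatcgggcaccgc
Hsp90b1 (chr10:86705513-86705571, minus strand): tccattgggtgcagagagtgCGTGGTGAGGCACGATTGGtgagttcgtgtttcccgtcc
Creld2 (chr15:88819500-88819558, plus strand): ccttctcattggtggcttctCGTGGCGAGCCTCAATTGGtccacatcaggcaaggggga
Dnajc3 (chr14:118937807-118937865, plus strand): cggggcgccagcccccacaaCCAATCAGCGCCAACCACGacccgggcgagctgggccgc
Calr (chr8:84847055-84847113, minus strand): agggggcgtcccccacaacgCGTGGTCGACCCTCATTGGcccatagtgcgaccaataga
Canx (chr11:50325780-50325838, minus strand): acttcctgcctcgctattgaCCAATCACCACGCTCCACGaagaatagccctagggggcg
Pdia6 (chr12:17266471-17266529, plus strand): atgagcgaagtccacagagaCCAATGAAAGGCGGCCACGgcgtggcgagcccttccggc
Syvn1 (chr19:6046512-6046570, plus strand): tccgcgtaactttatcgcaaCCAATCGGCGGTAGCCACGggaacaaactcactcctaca
Herpud1 (chr8:94386357-94386407, plus strand): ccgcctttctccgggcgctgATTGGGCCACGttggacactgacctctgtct

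Read from these lines, Hspa5, Canx, Dnajc3, Pdia6 and Syvn1 carried the element in the direction of the gene, and Hsp90b1 carried it in both directions. Derl3 was the ninth gene with a match, and Dnajb11 was the other gene with the shorter element. The core of the unfolded protein response element, TGACGTG, was present in the window of Hspa5 alone among the 26 members (3.85%), against 2.22% of all genes. None of the 3 sequences was found in the windows of Pdia3, Pdia4, P4hb, Ero1l, Sdf2l1, Dnajb9, Xbp1, Ern1, Eif2ak3, Edem1, Sel1l, Derl2, Sec61b, Ssr1 or Ssr3, which says only that these letters are not within those bases. Manf, Hyou1, Atf6, Derl1, Sec61a1 and Ssr2 had no window in the table.

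**Figure D1:**
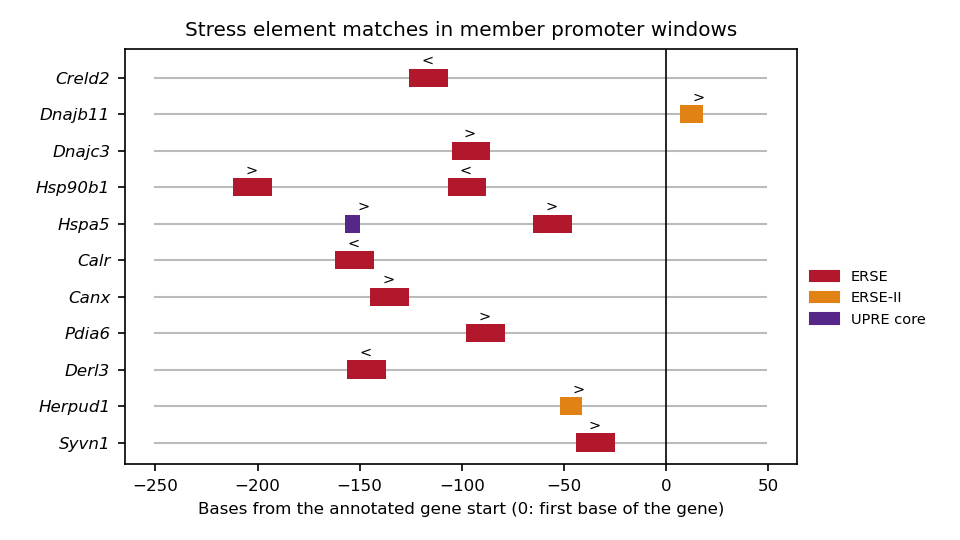
Positions of the stress element (ERSE), the shorter element (ERSE-II) and the unfolded protein response element core (UPRE core) in the promoter windows of the 11 members with a match, in bases from the annotated gene start. Arrows give the strand relative to the gene. All matches but that of Dnajb11 lie before the start.

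Libraries held 14992707 to 20082900 reads. Macrophage markers were abundant throughout, with the 8 genes of that list summing to 19990 to 21400 CPM in control and 28210 to 29660 with both agents. CPM here is the usual depth-scaled count after TMM, a normalization that multiplies each library's total by a factor so that fold changes of most genes centre near 0. Summed neutrophil markers lay at 121 to 145 CPM in the control group and 94.3 to 134 CPM in the CS-PA/CNP group, below the PgLPS group (199 to 225) and the group with both agents (160 to 181), and their part in the results was not tested. T and NK cell markers summed to at most 0.839 CPM and dendritic cell markers to at most 4.95 CPM in any library. The plasma cell and B cell list, of interest because those cells are rich in these chaperones, summed to 79.7 to 95.4 CPM in control libraries, to 130 to 138 where CS-PA/CNP was given, to 610 to 626 under PgLPS and to 474 to 500 under both. Sdc1, which macrophages also express, made up nearly all of it (82.4 ± 9.13 CPM in control and 615 ± 9.19 with PgLPS, SD, n = 3). Of the defining plasma cell genes, Tnfrsf17 had no reads, Mzb1 averaged at most 0.184 CPM and Jchain at most 1.33 CPM in any group. Stromal markers summed to 53.8, 10.5 and 5.88 CPM in PgLPS libraries 1, 2 and 3 and to at most 4.62 CPM in any other library. The part of stromal RNA in the results with PgLPS was not tested, and counts without PgLPS library 1 are given beside them. In bulk RNA, fewer cells of a type and less RNA per cell cannot be told apart.

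As a whole, the 32 genes took up a larger share of the reads with CS-PA/CNP than without it, whether or not PgLPS was present. Their share was 0.801% to 0.823% of reads in control and 1.05% to 1.08% with CS-PA/CNP. It was 0.628% to 0.681% with PgLPS and 0.852% to 0.906% with both agents. On the TMM scale the sum was 7070 ± 97.2 CPM in control, 9533 ± 164 with CS-PA/CNP, 7596 ± 209 with PgLPS and 9795 ± 272 with both (SD, n = 3). The groups with and without CS-PA/CNP did not overlap on either scale, while the control and PgLPS groups changed their order between the 2 scales.

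Calr was the most abundant member per length in every group. In CPM per kilobase of the gene length in the table, control levels were 350.4 ± 17.5 for Calr, 219 ± 3.55 for Pdia3, 199.8 ± 3.16 for Hspa5 and 184 ± 4.43 for P4hb (SD, n = 3). Canx at 119.9 ± 3.72 and Hsp90b1 at 106 ± 2.23 CPM per kilobase came next. At the other end stood Ern1 at 8.24 ± 0.609, Eif2ak3 at 5.04 ± 0.262 and Derl3 at 0.261 ± 0.167 CPM per kilobase, so 2 of the 3 sensors were among the 3 least abundant members. With PgLPS the 2 highest members came together, Calr at 291 ± 4.92 and Hspa5 at 284 ± 11.5 CPM per kilobase, and did not differ beyond their spread. The control order of Ssr1 (18.7 ± 0.381) and Atf6 (18.7 ± 1.06) was likewise within their spread. Derl3, a membrane protein of degradation best known from secretory cells, had so few reads (5 to 27 per library) that none of its fold changes could be read: leaving out control library 3 alone moved its log2 difference with CS-PA/CNP from 0.94 to 1.54.

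With CS-PA/CNP alone, chaperones, lectins and disulphide isomerases rose together while most degradation genes and 2 of the 3 sensors did not pass the test. Of the 32 genes 20 were higher than in control and 1 was lower by the edgeR quasi-likelihood test at an adjusted p under 0.05, or 65.6% called against 12.3% of all tested genes (6.67% higher and 5.61% lower). The median log2 fold change was 0.31 over the members and near 0 over all genes (2.38e-05). The 4 called genes with the largest change were Calr, Sdf2l1, Manf and Hyou1, and the one lower gene was Atf6. With any 1 library left out, 15 to 18 members were higher. Library totals in place of TMM gave 18 higher and 1 lower, and moved the higher share of calls over all genes from 54.3% to 41.9%.

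With PgLPS present, chaperones, lectins and isomerases were again higher where CS-PA/CNP was given. Against PgLPS alone, 20 members were higher and 2 lower with both agents, or 68.8% called against 19.5% of all genes (9.42% higher and 10.0% lower), with a median of 0.30 against −0.0051 over all genes. Sdf2l1, Calr, Hyou1 and Pdia4 had the largest changes, and Ero1l and Ern1 were the lower genes. Without PgLPS library 1 the counts were 19 higher and 2 lower. Library totals gave 21 and 2, and moved the higher share of calls over all genes from 48.4% to 61.4%.

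PgLPS alone was followed by a mixed picture. Against control, 16 members were higher and 7 lower, or 71.9% called, a share near the 63.8% of all tested genes (32.2% higher and 31.6% lower), and 16 and 8 without PgLPS library 1. The median was 0.26 against −0.0036 over all genes. The scaling weighed heavily here: when library totals replaced TMM, the median of all genes moved by −0.41, calls over all genes went from 50.5% to 21.8% higher, and 5 members were called higher and 17 lower. Directions for PgLPS below are therefore relative to the median gene. The order and overlap of groups in CPM below are on the TMM scale as well. Between groups with and without PgLPS they can change with library totals.

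With both agents against control, 25 members were higher and 3 lower, or 87.5% called against 58.0% of all genes (29.7% higher and 28.4% lower). The median was 0.50 against −0.0058 over all genes. Library totals moved the median of all genes by −0.36 and the higher share of calls from 51.1% to 21.3%, and left 16 members higher and 7 lower. The comparisons with control share the control libraries, and the PgLPS libraries are shared by the comparison of PgLPS with control and that of both agents with PgLPS, so their counts are not independent of each other.

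**Figure D2:**
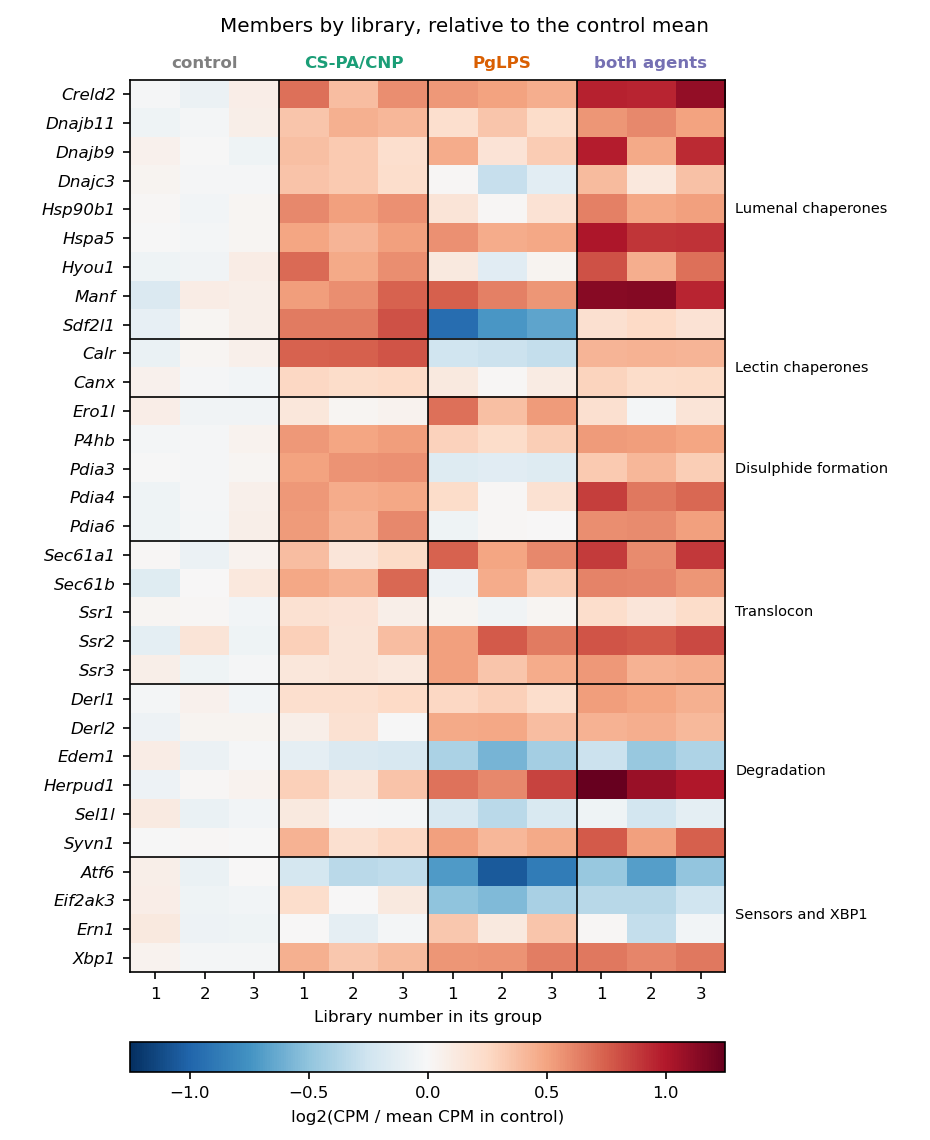
Level of 31 members in each of the 12 libraries as log2 of CPM over the mean CPM in control, in rows grouped by role, with Derl3 left out for its few reads. Both groups with CS-PA/CNP are red for every chaperone, lectin and isomerase. With library totals Sdf2l1, Canx, Dnajc3 and Pdia3 had values below control in the group with both agents, and none was called (edgeR adjusted p 0.0576 to 0.801). The PgLPS group is bluest for Atf6, Sdf2l1, Eif2ak3 and Edem1, which also fell with library totals.

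Among the 9 lumenal chaperones and their partners, 8 rose with CS-PA/CNP alone and 9 of 9 rose when it was added to PgLPS. Of all tested genes, 6.67% and 9.42% were higher in these comparisons. BiP, the central chaperone of the compartment and the one that holds the sensors inactive, had Hspa5 levels of 844, 832 and 859 CPM in control, 1190, 1135 and 1207 with CS-PA/CNP, 1255, 1164 and 1180 with PgLPS, and 1701, 1573 and 1579 with both. Every library with both agents was above every library with 1 agent, and those were above every control library. Hspa5 rose by 0.48 ± 0.052 with CS-PA/CNP (log2 fold change ± SE, edgeR adjusted p = 2.41e-06), by 0.43 ± 0.052 with both agents over PgLPS (5.3e-06) and by 0.94 ± 0.052 with both over control (1.21e-11). Its rise with PgLPS, 0.51 ± 0.052 (7.42e-08), came to 0.091 with library totals and was then not called (adjusted p = 0.118).

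Sdf2l1, a partner of BiP and its J-proteins, moved in opposite directions with the 2 agents. It measured 89.3, 97.8 and 101 CPM in control, 151, 151 and 167 with CS-PA/CNP, 49.5, 58.0 and 60.9 with PgLPS, and 110, 114 and 109 with both. No library of one group overlapped another, and the order ran from PgLPS through control and both agents to CS-PA/CNP. Sdf2l1 fell by 0.77 on the log2 scale with PgLPS (SE 0.078, edgeR adjusted p = 6.79e-08) and rose by 0.70 ± 0.075 with CS-PA/CNP (2.25e-06) and by 0.98 ± 0.079 with both agents over PgLPS (3.15e-08). Both agents against control gave 0.21 ± 0.076 (adjusted p = 0.025), a call that was lost without control library 1 (0.144), control library 2 (0.0562) or both-agent libraries 1 (0.0513) or 2 (0.0617), and that turned to −0.15 with library totals.

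Manf, a secreted stress protein that binds BiP, stood at 42.0, 50.9 and 49.97 CPM in control, 68.3, 71.3 and 79.3 with CS-PA/CNP, 79.8, 73.6 and 69.6 with PgLPS, and 105, 105 and 92.3 with both. The single-agent groups overlapped each other and lay between control and both agents. Its log2 fold change was 0.62 ± 0.088 with CS-PA/CNP, 0.64 ± 0.088 with PgLPS, 0.44 ± 0.086 with both over PgLPS and 1.08 ± 0.088 with both over control, all called (edgeR adjusted p at most 9.79e-04). Creld2, another secreted protein of this response, followed the same order, with 37.4, 35.9 and 40.1 CPM in control, 61.2, 49.6 and 56.6 with CS-PA/CNP, 55.1, 53.7 and 51.8 with PgLPS, and 73.9, 73.2 and 81.1 with both. Creld2 rose by 0.56 ± 0.082 with CS-PA/CNP, by 0.51 ± 0.081 with both over PgLPS and by 1.01 ± 0.082 with both over control, and its 0.50 ± 0.083 with PgLPS was not called with library totals (0.087, edgeR adjusted p = 0.355).

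Hyou1, a large chaperone that exchanges the nucleotide of BiP, was not called between PgLPS and control on the TMM scale and was lower with PgLPS on library totals. Its levels were 203, 204 and 225 CPM in control, 344, 293 and 316 with CS-PA/CNP, 229, 191 and 216 with PgLPS, and 365, 288 and 340 with both. The control and PgLPS libraries overlapped, as did the groups with CS-PA/CNP, and the latter lay above the former. Hyou1 differed by 0.0068 ± 0.087 with PgLPS (edgeR adjusted p = 0.951, and −0.41 with adjusted p = 5.35e-04 on library totals), by 0.59 ± 0.086 with CS-PA/CNP (8.26e-05) and by 0.64 ± 0.087 with both over PgLPS (2.05e-05).

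Hsp90b1, the lumenal Hsp90 chaperone GRP94, had values of 0.12 ± 0.059 with PgLPS (not called, adjusted p = 0.0856, and −0.30 with adjusted p = 2.53e-04 on library totals), 0.56 ± 0.058 with CS-PA/CNP and 0.42 ± 0.059 with both over PgLPS by edgeR. The J-proteins Dnajb9, Dnajb11 and Dnajc3, which hand substrates to BiP, rose by 0.29 to 0.49 with both agents over PgLPS. Given CS-PA/CNP alone, Dnajb11 rose by 0.40 ± 0.060, and Dnajb9 at 0.31 ± 0.11 did not pass (adjusted p = 0.0857). Dnajc3 rose by 0.30 ± 0.079 (adjusted p = 0.0145), a call lost without control library 2 (0.0637), control library 3 (0.0669), CS-PA/CNP library 1 (0.0852) or CS-PA/CNP library 2 (0.0651). With PgLPS, Dnajb9 (0.32 ± 0.11) and Dnajb11 (0.26 ± 0.060) were called higher, and both turned with library totals (−0.091 and −0.15). The Dnajb9 call was also lost without control library 2 (0.0624), control library 3 (0.0838) or PgLPS library 1 (0.0835).

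Both lectin chaperones, which hold glycoproteins by their sugar chains, rose with CS-PA/CNP in either setting. Calr, the lumenal one, had 953, 1024 and 1051 CPM in control, 1687, 1697 and 1743 with CS-PA/CNP, 851, 840 and 823 with PgLPS, and 1359, 1362 and 1352 with both. The 4 groups were fully separate, with PgLPS lowest and CS-PA/CNP alone highest. Calr rose by 0.76 ± 0.049 with CS-PA/CNP (edgeR adjusted p = 3.21e-09) and by 0.70 ± 0.049 with both over PgLPS (6.51e-09), and fell by 0.27 with PgLPS (SE 0.049, 9.76e-05). Its rise with both agents over control, 0.43 ± 0.049, was 0.065 and not called with library totals (adjusted p = 0.213).

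Canx, the membrane-bound lectin, changed less. It rose by 0.25 ± 0.050 with CS-PA/CNP (edgeR adjusted p = 0.00229) and by 0.17 ± 0.050 with both over PgLPS (0.0217), and the second call was lost without PgLPS library 2 (0.0814) or both-agent library 1 (0.0867). With both agents over control Canx rose by 0.25 ± 0.050, which turned to −0.11 with library totals, and with PgLPS it was not called (0.080 ± 0.050) but was lower on library totals (−0.33, adjusted p = 1.38e-05).

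The 4 protein disulphide isomerases rose with CS-PA/CNP in both settings, and the oxidase Ero1l did not. Pdia4 had the largest fold change of the 4 in the presence of PgLPS, with 94.9, 97.7 and 103 CPM in control, 143, 136 and 138 with CS-PA/CNP, 115, 99.2 and 112 with PgLPS, and 180, 156 and 162 with both. On the TMM scale the both-agent libraries were above all others, and the control and PgLPS groups overlapped. As shares of all reads, the both-agent group overlapped the CS-PA/CNP group. Pdia4 rose by 0.50 ± 0.070 with CS-PA/CNP (edgeR adjusted p = 6.29e-05) and by 0.61 ± 0.071 with both over PgLPS (3.96e-06), and was not called with PgLPS (0.15 ± 0.071, 0.0834) but was lower on library totals (−0.27, adjusted p = 0.00321). Pdia3, which works with the lectin chaperones on glycoproteins, rose by 0.54 ± 0.049 and 0.51 ± 0.049 in the same comparisons and fell with PgLPS by 0.16 (SE 0.049, 0.00966). Its rise of 0.35 ± 0.049 with both agents over control came to −0.014 with library totals. Pdia6 rose by 0.53 ± 0.058 and 0.57 ± 0.058 and stood at −0.013 ± 0.058 with PgLPS (0.857, and −0.43 with adjusted p = 1.8e-06 on library totals).

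P4hb, the classical disulphide isomerase, had overlapping levels on the TMM scale with CS-PA/CNP whether or not PgLPS was present. It had 517, 519 and 540 CPM in control, 767, 738 and 755 with CS-PA/CNP, 640, 617 and 649 with PgLPS, and 758, 754 and 739 with both. On that scale the 2 groups with CS-PA/CNP overlapped and lay above PgLPS, which lay above control. As shares of all reads these 2 groups did not overlap, and the one with both agents was lower. P4hb rose by 0.52 ± 0.048 with CS-PA/CNP (edgeR adjusted p = 3.5e-07) and by 0.24 ± 0.048 with both over PgLPS (0.00127), while the rise of 0.27 ± 0.048 with PgLPS turned to −0.14 with library totals.

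Ero1l, the oxidase that reoxidizes the isomerases, was highest in the PgLPS libraries. It had 57.8, 53.1 and 52.8 CPM in control, 60.3, 55.5 and 56.4 with CS-PA/CNP, 88.0, 70.6 and 78.9 with PgLPS, and 62.5, 53.6 and 60.9 with both. The PgLPS group lay above the other 3, which overlapped. Ero1l rose by 0.54 ± 0.084 with PgLPS (edgeR adjusted p = 1.92e-05, and 0.12 with adjusted p = 0.219 on library totals) and fell by 0.42 with both agents over PgLPS (SE 0.085, adjusted p = 0.00121). With CS-PA/CNP alone it was not called (0.072 ± 0.084, adjusted p = 0.673).

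**Figure D3:**
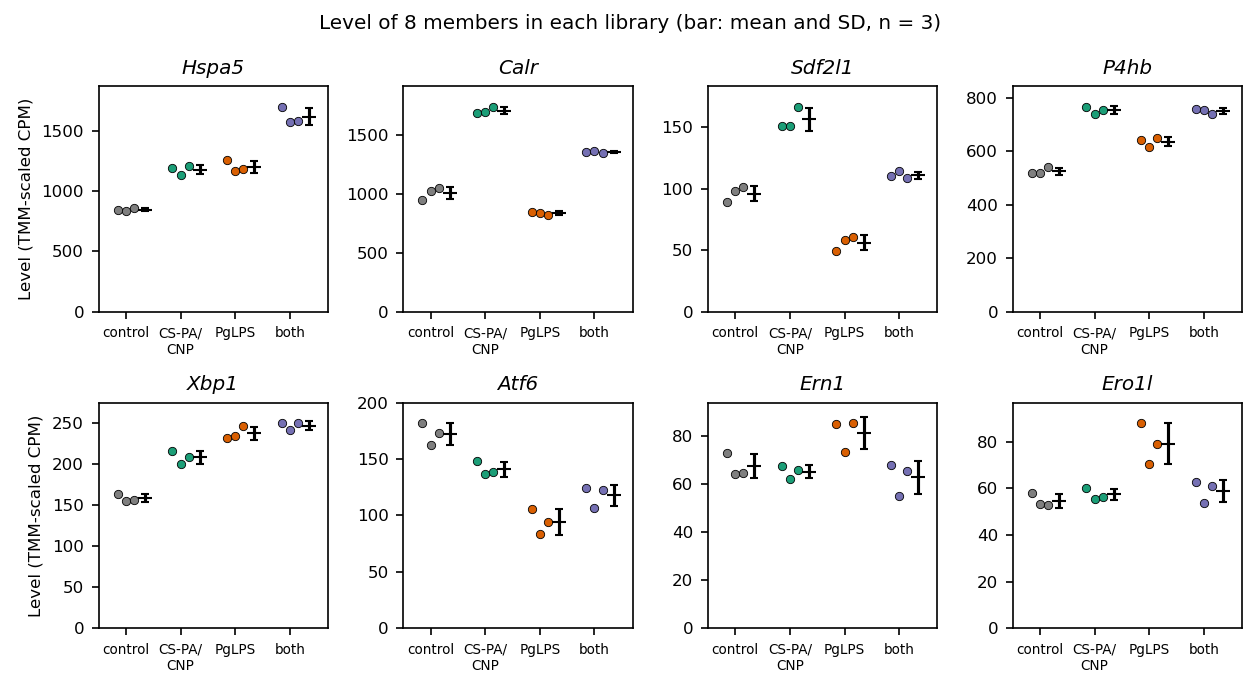
Level in TMM-scaled CPM of 8 members in each library, by group, with the mean and SD (n = 3) drawn beside the points. Hspa5 is highest with both agents, Calr and Sdf2l1 with CS-PA/CNP alone, and Ern1 and Ero1l with PgLPS alone, although the rises of Hspa5 and Ero1l with PgLPS were not called and that of Ern1 turned to −0.14 with library totals.

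Of the 5 translocon genes, 3 rose with PgLPS (2 with library totals, which also made Ssr1 lower, at −0.41), 60.0% called against 63.8% of all genes and so no result about the role. With CS-PA/CNP alone 3 were higher (60.0% against 12.3%, or 1 gene with library totals), and with both agents over PgLPS 2 of the 5 were higher, against 19.5% of all genes called. Ssr2, a subunit of the translocon-associated protein complex, had 56.5, 68.9 and 59.4 CPM in control, 75.6, 68.7 and 80.4 with CS-PA/CNP, 87.9, 105 and 96.3 with PgLPS, and 106, 105 and 109 with both. The control and CS-PA/CNP groups overlapped, and both PgLPS groups lay above them. Ssr2 rose by 0.64 ± 0.085 with PgLPS (edgeR adjusted p = 2.05e-06, and 0.23 with library totals). Its 0.28 ± 0.084 with CS-PA/CNP (adjusted p = 0.0342) was lost without control libraries 1 (0.194) or 3 (0.141) or CS-PA/CNP libraries 1 (0.112) or 3 (0.199).

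Sec61a1, the pore of the channel, rose by 0.61 ± 0.085 with PgLPS, and its call with CS-PA/CNP (0.26 ± 0.084, edgeR adjusted p = 0.0495) was lost whichever of the 6 libraries was left out (0.0517 to 0.264). Ssr3 rose by 0.44 ± 0.058 with PgLPS, or 0.030 and not called with library totals (adjusted p = 0.668), and was not called with CS-PA/CNP in either setting. Sec61b, the small tail-anchored subunit, rose by 0.55 ± 0.11 with CS-PA/CNP (adjusted p = 0.00187). Its rise of 0.33 ± 0.11 with both over PgLPS (adjusted p = 0.0398) was not called without PgLPS library 1 (0.189) or 3 (0.0658) or any single both-agent library (0.0634 to 0.102). Ssr1 rose by 0.19 ± 0.055 with both over PgLPS (adjusted p = 0.0195), not called without PgLPS library 2 (0.0611) or both-agent libraries 1 (0.0686) or 3 (0.0685), and its rise of 0.20 ± 0.055 with both over control turned to −0.17 with library totals.

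The 7 degradation genes, Derl3 with its few reads among them, had the lowest share called with CS-PA/CNP of the 6 roles. It was 2 of 7 (28.6%) in either setting, against 12.3% of all genes without PgLPS and 19.5% with it. With library totals 2 of 7 were called without PgLPS and 3 of 7 with it. The translocon genes were then lowest, with 1 of 5 and 2 of 5. With PgLPS 4 were higher and 2 lower (85.7% called against 63.8% of all genes), or 1 and 3 with library totals. Herpud1, a membrane protein that assembles the degradation complex, had 23.2, 24.5 and 24.9 CPM in control, 29.7, 26.9 and 31.1 with CS-PA/CNP, 38.7, 36.6 and 43.6 with PgLPS, and 58.0, 51.3 and 48.6 with both. The groups did not overlap and lay in that order. Herpud1 rose by 0.71 ± 0.093 with PgLPS (edgeR adjusted p = 1.82e-06, and 0.30 with adjusted p = 0.00758 on library totals), by 0.41 ± 0.090 with both over PgLPS (0.00271) and by 1.12 ± 0.092 with both over control (3.84e-09). Its 0.27 ± 0.093 with CS-PA/CNP alone was not called (0.0649).

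Syvn1, the ubiquitin ligase HRD1, rose by 0.46 ± 0.077 with PgLPS (0.050 and not called with library totals, edgeR adjusted p = 0.577) and by 0.30 ± 0.077 with CS-PA/CNP (adjusted p = 0.0131). The second call was lost without control libraries 1 (0.0556) or 3 (0.0607) or CS-PA/CNP library 1 (0.117). Sel1l, its partner, fell by 0.24 with PgLPS (SE 0.070), and Edem1, which delivers mannose-trimmed glycoproteins for degradation, fell by 0.46 (SE 0.067). The channel proteins Derl1 and Derl2 rose with PgLPS by 0.26 ± 0.055 and 0.45 ± 0.067, which came to −0.16 and 0.033 with library totals. Derl1 also rose by 0.22 ± 0.055 with CS-PA/CNP (adjusted p = 0.00932, and 0.0626 without control library 3 or 0.0649 without CS-PA/CNP library 3) and by 0.23 ± 0.055 with both over PgLPS.

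The messengers of the sensors did not follow the chaperones. Atf6 had 182, 162 and 173 CPM in control, 148, 136 and 138 with CS-PA/CNP, 106, 83.2 and 94.2 with PgLPS, and 124, 107 and 123 with both. All groups were separate, with PgLPS lowest and control highest. Atf6 fell by 0.87 with PgLPS (SE 0.083, edgeR adjusted p = 2.58e-08), the largest change of the 32 genes in that comparison, and rose by 0.32 ± 0.083 when CS-PA/CNP was added to PgLPS (0.00918). With CS-PA/CNP alone it fell by 0.29 (SE 0.081, adjusted p = 0.0226), which was not called without control libraries 1 (0.101) or 3 (0.0619) or CS-PA/CNP libraries 2 (0.0846) or 3 (0.0878).

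Ern1, the IRE1 sensor, had 73.1, 64.3 and 64.7 CPM in control, 67.4, 62.2 and 66.1 with CS-PA/CNP, 85.1, 73.5 and 85.4 with PgLPS, and 67.9, 55.0 and 65.6 with both. The PgLPS libraries were the highest by a small margin, and the other 3 groups overlapped. Its 0.27 ± 0.086 with PgLPS (edgeR adjusted p = 0.0104) was lost without control libraries 2 (0.0728) or 3 (0.0705) or PgLPS library 3 (0.0526) and turned to −0.14 with library totals, while the fall of 0.37 with both over PgLPS (SE 0.087, adjusted p = 0.00434) was also called with library totals (−0.32). Eif2ak3, the PERK sensor, had 32.2, 29.2 and 29.8 CPM in control, 35.3, 30.5 and 32.98 with CS-PA/CNP, 21.5, 20.7 and 22.9 with PgLPS, and 23.9, 23.8 and 25.6 with both. Both groups with PgLPS lay below both groups without it. Eif2ak3 fell by 0.48 with PgLPS (SE 0.087, adjusted p = 8.6e-05) and was not called with CS-PA/CNP in either setting (0.12 ± 0.083 and 0.17 ± 0.089).

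Xbp1, the transcription factor that IRE1 activates by splicing, had 164, 156 and 157 CPM in control, 216, 201 and 209 with CS-PA/CNP, 233, 234 and 247 with PgLPS, and 250, 242 and 251 with both. Every treated library was above every control library, and the 2 groups with PgLPS overlapped. Xbp1 rose by 0.58 ± 0.055 with PgLPS (edgeR adjusted p = 2.25e-08, and 0.17 with adjusted p = 0.0105 on library totals) and by 0.39 ± 0.055 with CS-PA/CNP (5.08e-05). Adding CS-PA/CNP to PgLPS gave 0.056 ± 0.055, which was not called (0.54).

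The effects of CS-PA/CNP without and with PgLPS come from separate libraries, so their members can be compared. Of the 20 members higher in each, 16 were the same, or 80.0% of either list. With 20 of 32 members higher in each, a large overlap follows from these counts alone. The overlap of calls over all tested genes was not counted. Sec61a1, Ssr2, Syvn1 and Xbp1 were called only without PgLPS, and Atf6, Dnajb9, Herpud1 and Ssr1 were called higher only with it. Of these 8 genes, Xbp1 and Atf6 alone differed between the settings by the test given below. Across the 32 genes the 2 sets of log2 fold changes had a Pearson r of 0.68 and a Spearman rho of 0.81 (r = 0.71 without Derl3), against an r of −0.045 across all tested genes. The members were not matched to the other genes in level, so the r values are not a like-for-like contrast. These are descriptions across genes, which are not independent replicates, and genes within each set share their libraries.

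**Figure D4:**
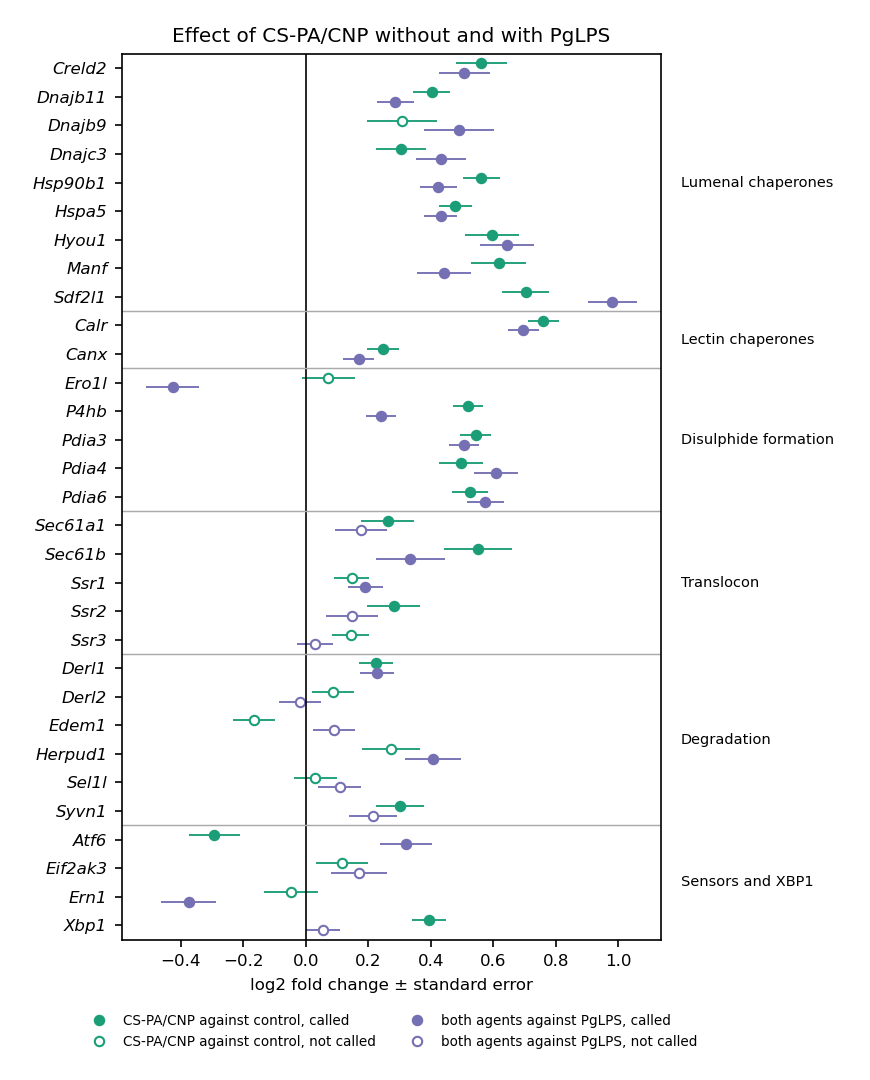
Log2 fold change ± standard error of 31 members for CS-PA/CNP against control and for both agents against PgLPS, grouped by role, with filled points for edgeR adjusted p under 0.05 and Derl3 left out for its few reads. Chaperones, lectins and isomerases lie to the right of 0 in both comparisons, and Xbp1, Atf6, Ero1l and P4hb are the genes whose paired points differed by the test.

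A test of the difference itself, which subtracts the change without PgLPS from the change with it, called 4 of the 32 genes, 1 higher and 3 lower. That is 12.5% against 15.8% of all tested genes (7.46% higher and 8.34% lower), so the members did not stand out by this measure. Library totals gave 3 higher and 2 lower, and moved the higher share of calls over all genes from 47.2% to 63.7%. The difference was 0.61 ± 0.12 for Atf6 (edgeR adjusted p = 8.73e-04), −0.50 ± 0.12 for Ero1l (0.00665), −0.34 ± 0.077 for Xbp1 (0.00444) and −0.28 ± 0.068 for P4hb (0.0069, and 0.0646 with library totals). No lumenal or lectin chaperone was called, with differences from −0.17 ± 0.12 for Manf to 0.28 ± 0.11 for Sdf2l1. That of Sdf2l1 had an adjusted p of 0.0995, or 0.019 with library totals. A p above the threshold does not show that the remaining effects were equal.

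Genes with the stress element can be set beside those without it, as values only. The 9 genes with it include Derl3, whose fold changes could not be read but enter the medians. Under CS-PA/CNP alone, 8 of the 9 genes with the element were higher (median log2 fold change 0.53) and 7 of the 17 without it (0.27). Of all tested genes 6.67% were higher there. With both agents over PgLPS the counts were 7 of 9 (median 0.43) and 9 of 17 (0.19), with 2 of the 17 lower. Of all tested genes 9.42% were higher and 10.0% lower in that comparison. With PgLPS alone the order of the medians was the other way, 0.080 with the element and 0.26 without, and 3 against 9 genes were higher and 1 against 5 lower. Of all tested genes 32.2% were higher and 31.6% lower. The split was not made with library totals, which gave 5 of the 32 members higher and 17 lower with PgLPS. Most genes with the element were chaperones, lectins or isomerases, so the element and the role cannot be told apart here.

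A further 8 lists of genes around the same pathway showed how far the pattern extended, and their members were counted in the same fit. After CS-PA/CNP alone, N-glycosylation and glycan trimming had 8 of 17 genes higher and 0 lower, led by Rpn1 (0.53 ± 0.057), a subunit of the oligosaccharyltransferase, and Mlec (0.38 ± 0.075), a lectin of newly glycosylated proteins. Export in COPII vesicles had 6 of 20 higher and 0 lower, led by the cargo receptor Surf4 (0.48 ± 0.058). Other thiol oxidoreductases had 5 of 16 higher and 1 lower, with Txndc11 at 0.48 ± 0.10 and Tmx4 at −0.36 ± 0.076. Other degradation genes had 4 of 20 higher and 1 lower, among them the segregase Vcp (0.38 ± 0.050), and other entry genes had 4 of 20 higher and 0 lower, with the channel subunit Sec61g at 0.60 ± 0.13. Other regulators had 2 of 11 higher and 0 lower, the phosphatase Ptpn1 (0.27 ± 0.052) and Atf6b (0.24 ± 0.072), the close relative of Atf6. The shares called in these 6 lists, 18.2% to 47.1%, were above the 12.3% of all tested genes (6.67% higher and 5.61% lower). They were below the 65.6% of the 32 members, which is a description with no test. With library totals, other regulators had 1 of 11 higher and 0 lower, a share no longer above that of all genes. Of the 11656 tested genes, 611 were then higher and 846 lower.

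In the PERK branch 0 of 10 genes were higher with CS-PA/CNP alone and 3 were lower, or 30.0% called against 12.3% of all tested genes. The lower genes were Chac1, a glutathione-degrading enzyme at low level (0.970 ± 0.26 against 2.29 ± 0.31 CPM, SD, n = 3), at −1.26 ± 0.32, the asparagine synthetase Asns at −0.56 ± 0.077 and the transcription factor Atf3 at −0.22 ± 0.064. With both agents over PgLPS 1 was higher, Atf3 at 0.62 ± 0.065, and 1 was lower, Ppp1r15b at −0.54 ± 0.068, a regulatory subunit that helps reverse the phosphorylation by PERK. The share called there was near the 19.5% of all tested genes. With PgLPS alone 7 of the 10 were higher and 2 lower (90.0% called against 63.8% of all tested genes). Library totals made it 3 and 3. On the TMM scale Ppp1r15b rose by 1.34 ± 0.069 and Ddit3, the factor CHOP, by 0.75 ± 0.14. The effect of CS-PA/CNP differed with PgLPS for Atf3 by 0.84 ± 0.092 (edgeR adjusted p = 2.05e-06) and for Asns by 0.56 ± 0.11 (0.0013), and in the other direction for Ppp1r15b by −0.38 ± 0.097 (0.00978).

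Where CS-PA/CNP was added to PgLPS, N-glycosylation had 5 of 17 higher and 0 lower, with Rpn1 again at 0.53 ± 0.058 and Mlec at 0.41 ± 0.078. COPII export had 6 of 20 higher and 1 lower, other oxidoreductases 2 of 16 higher and 1 lower, other degradation genes 1 of 20 higher and 2 lower, and other entry genes 2 of 20 higher and 2 lower. Other regulators had 2 of 11 in each direction, with Wfs1, a membrane protein of the compartment, at 0.50 ± 0.094 and Ptpn1 at −0.36 ± 0.052. The receptors for turnover of the compartment had 0 of 5 higher and 1 lower, in this comparison and with CS-PA/CNP alone. With both agents over PgLPS, 19.5% of all tested genes were called (9.42% higher and 10.0% lower). The shares called among other oxidoreductases and other degradation genes were below that, and those of other entry genes and turnover receptors were near it. N-glycosylation, COPII export and other regulators were above it, which is a description with no test.

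With PgLPS alone, where 32.2% of all tested genes were higher and 31.6% lower, COPII export had 16 of 20 higher and 0 lower, a split that was 1 and 8 with library totals, and other degradation genes had 14 of 20 higher and 1 lower, or 4 and 8 with library totals. Other entry genes had 11 of 20 higher and 2 lower, or 2 and 11 with library totals. N-glycosylation had 3 of 17 higher and 5 lower, or 1 and 15 with library totals, with Mlec at −1.09 ± 0.078. Other oxidoreductases had 6 of 16 higher and 5 lower, or 3 and 10 with library totals, with Tmx4 at −1.35 ± 0.080. The receptors for turnover of the compartment had 1 of 5 higher and 3 lower, with Calcoco1 at −1.41 ± 0.12. Among 11 other regulators, 5 rose and 3 fell, or 4 and 6 with library totals. The largest rises were those of Ptpn1 (1.45 ± 0.053), the ubiquitin ligase gene Bfar (1.21 ± 0.075) and Tmbim6 (1.18 ± 0.061), a membrane protein known to restrain IRE1, and all 3 stayed above 0 with library totals (0.76 to 1.03).

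**Figure D5:**
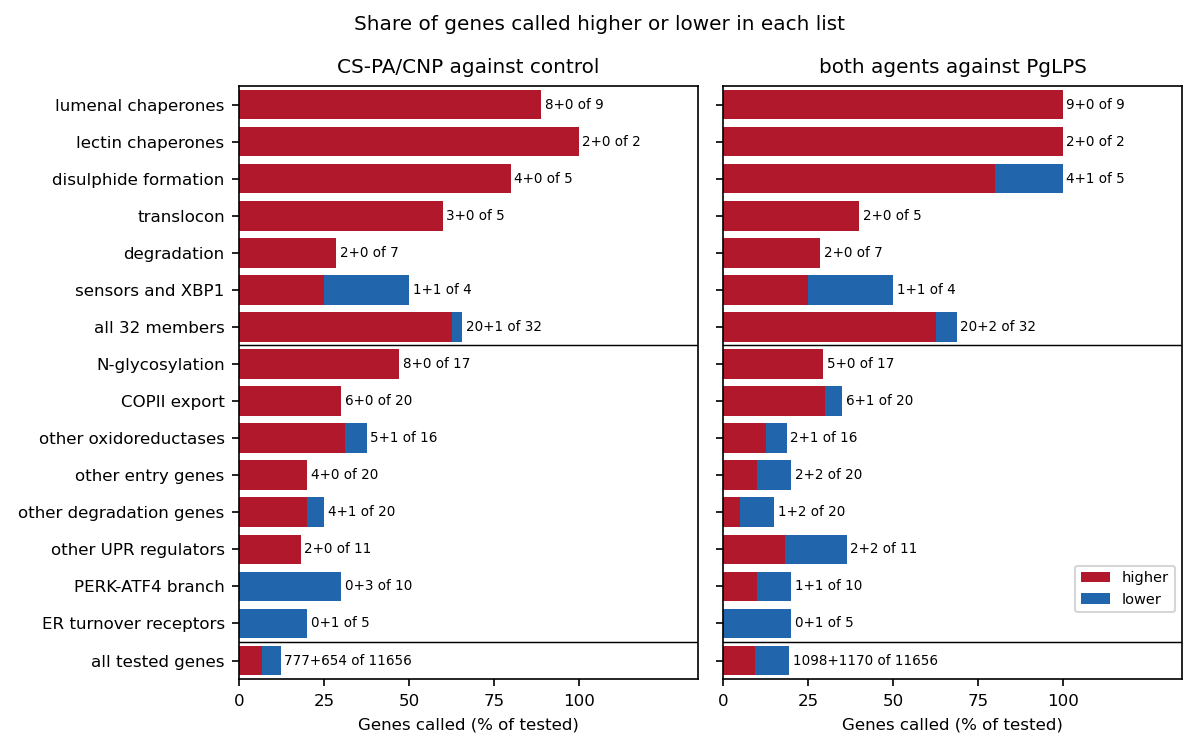
Share of genes called higher (red) or lower (blue) in each role of the 32 members, in 8 further lists and among all 11656 tested genes, for CS-PA/CNP against control and for both agents against PgLPS, with counts beside the bars (higher plus lower of tested). Lumenal chaperones, lectins and the disulphide genes reach 80% or more in both panels, above the further lists and the 12.3% and 19.5% of all genes. The disulphide bar for both agents against PgLPS includes 1 lower gene, the oxidase Ero1l.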

How the data were processed

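The authors' deposited table gives each gene a length and an unnormalized whole read count in each of 12 libraries (14992707 to 20082900 reads each). The submitters' processing notes name DESeq 1.30.0, HTSeq 0.9.1, HISAT2 2.0.5 and cutadapt 1.15, with no role or order given. Strandedness, annotation and genome build were not given in the sources used here. Overlapping or antisense genes may therefore share reads. Per the labels' protocols, fragments of 400 to 500 bp were amplified with 15 PCR cycles, so reads are not independent molecules. The 12 deposited FPKM columns were not used.

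Counts were tested with the edgeR 4.0.16 quasi-likelihood test in R 4.3.3, after TMM scaling and filterByExpr with the groups as its argument. The model was fitted once to the 12 libraries, with 4 group means and no covariate. Adjusted p-values are 2-sided Benjamini-Hochberg values over the 11656 tested genes, and a gene was called at an adjusted p under 0.05. There were 5 comparisons: each agent with control, both agents with PgLPS and with control, and the difference between the 2 effects of CS-PA/CNP. Log2 fold changes carry standard errors, and levels are mean ± SD over 3 libraries. The fit was tested on simulated data in which few genes changed, as many up as down, in the PgLPS group alone. That setting does not test the scaling, on which the results depended most.

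Per-library values are given for Hspa5, Xbp1, Atf6, Ern1 and Eif2ak3 and for the 4 called members with the largest change in each comparison. From each of 8 further pathway lists, up to 3 called genes with the largest change may be named. The members and lists, and 6 lists of cell type markers, were chosen with earlier results of these data known. Tusc3 and Trac were not in the table. Alternatives were DESeq2 1.42.0, its size factors in edgeR, library totals, no filter, the compared groups alone, a threshold of 0.01, each library left out and the column number as a block. Counting only the 31 members matched by symbol, and the search for the shorter promoter element, were added after seeing the data.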

Additional observations from a re-analysis of the deposited data

Results flagged for a closer look

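The effect of CS-PA/CNP differed between cells with and without PgLPS, by the edgeR test of that difference, for 4 of the 32 genes. For Atf6 the log2 fold change was −0.29 without and 0.32 with PgLPS, a difference of 0.61 ± 0.12 (SE, adjusted p = 8.73e-04). It stayed between 0.53 and 0.70 with any 1 library left out, with adjusted p from 1.39e-04 to 0.00393. Xbp1 went from 0.39 to 0.056, a difference of −0.34 ± 0.077 (adjusted p = 0.00444). Ero1l went from 0.072 to −0.42, a difference of −0.50 ± 0.12 (adjusted p = 0.00665). P4hb went from 0.52 to 0.24, a difference of −0.28 ± 0.068 (adjusted p = 0.0069), which was −0.19 and not called with library totals (adjusted p = 0.0646). On the TMM scale PgLPS alone had raised Xbp1, Ero1l and P4hb and lowered Atf6, so on that scale each of the 4 genes started from a different level. With library totals the rise of Ero1l was 0.12 and not called (edgeR adjusted p = 0.219). That of Xbp1 was 0.17, and P4hb turned to −0.14. What part the starting level has in the difference was not tested.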

How the results depend on the processing

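The largest dependence was on the scaling. With library totals, PgLPS against control had 5 members higher and 17 lower, both agents against control 16 and 7, and the difference between the effects of CS-PA/CNP 3 higher. Of 160 gene results, library totals ended 13 calls with the sign kept, gave 13 further calls (among them Hsp90b1, Hyou1, Canx, Pdia4, Pdia6 and Ssr1 lower with PgLPS) and turned 10 calls: for PgLPS against control Dnajb9 (−0.091), Dnajb11 (−0.15), Ern1 (−0.14), Derl1 (−0.16) and P4hb (−0.14), and for both agents against control Pdia3 (−0.014), Canx (−0.11), Dnajc3 (−0.059), Sdf2l1 (−0.15) and Ssr1 (−0.17). Of these 10, Dnajb11, Derl1, P4hb and Ssr1 were then called in the other direction, and the rest were not called. In these 2 comparisons with control, library totals moved the median of all genes by −0.41 and −0.36.

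For CS-PA/CNP against control, the count of lower members was 2 with the compared groups alone, 0 at a threshold of 0.01, and 0 to 1 with any 1 library left out. The difference between effects had 1 to 2 members higher with any 1 library left out. With the 31 genes matched by symbol alone, 1 member was lower with both agents than with PgLPS, since Ero1l was then not counted. For the other changes the cause was not tested. DESeq2 changed no call among the 160 gene results, its size factors in edgeR ended that of Sec61a1 with CS-PA/CNP (adjusted p = 0.0583), removing the filter added 3 calls, and a threshold of 0.01 ended 11.

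As a replicate block, the number in the column names gave 2 lower members for CS-PA/CNP against control and 3 higher for the difference between effects, ended none of the 160 results and added 14 calls. Whether the column numbers pair the libraries was not settled. Of 18 same-numbered pairs, 9 had a correlation of deviations over 0.1 (range −0.091 to 0.32). The own number was highest in 21 of 36 comparisons. Depth limited Derl3, the only member with a fold that moved by over 1.5 times when 1 library was left out.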
